A study of Mus musculus with 4 samples.

Results

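The genes described are those of the translation initiation and elongation factors, the proteins that load the ribosome onto an mRNA, find its start codon and move it along the coding sequence. They were chosen by symbol alone, as the protein-coding genes of mouse RefSeq whose symbol begins with Eif or Eef followed by a number. This gave 71 genes of 21900. The data are DNase-seq islands, regions where neighbouring windows hold more sequenced DNase I cut fragments than their surroundings and which are read here as accessible chromatin. An island was given to the gene with the nearest gene end, of either kind, within 50 kb, and to each of the tied genes where several ends were equally near. The 71 genes held 84 of the 16584 islands of the table.

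The series profiled lymphoid tissue inducer (LTi) cells, group 3 innate lymphoid cells that induce Peyer's patches and lymph nodes, sorted from Peyer's patches of C57BL/6 mice as Lin-CD127+ KLRG1-NK1.1-NKp46-CCR6+ cells. The mice carried floxed Tcf7 together with a Cre recombinase (Tcf7-KO, 2 libraries) or were Tcf7+/+ (control, 2 libraries), and the product of Tcf7, TCF-1, is a transcription factor. The labels read here give neither age nor sex and do not say whether mice were pooled. Per the labels, each library took 300 sorted cells and 5 minutes of digestion with 0.3 U DNase I.

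The table gives each island 1 peak-side and 1 control-side read count, and no header or label ties either side to a genotype or to single libraries. Tcf7-KO and control mice are therefore not compared, there is no replicate spread, and every statement below describes islands and the 2 sides of the table. The islands of the 71 genes held 2186 of 425134 peak-side reads and 3512 of 645087 control-side reads. The fold divides peak-side reads by control-side reads times 0.345, the same factor in every island, and is printed as in the authors' deposited table. The range after each fold is an exact (Clopper-Pearson) 95% counting interval, which covers counting error only, since each side has 1 value per island. It treats every read as independent. The reads carry no molecular identifiers and 1 molecule can give several, so the interval can be too narrow even for counting error. An island is called where its FDR in the authors' deposited table is under 0.05. The p-value behind that FDR takes the scaled control-side count as exact, while the interval counts error on both sides. A called island can therefore have an interval that reaches below 1. Of 58 start or gene-end islands of these genes, 45 were called and 34 had an interval above 1. As a check of the cell type, 9 of 11 LTi marker genes had an island (512 peak-side and 654 control-side reads). Ccr6 and Cd4 lacked one. Of all protein-coding genes 53.9% had an island, and of the marker genes of other cells 8 of 20. These 8 were Cd3d among 4 T cell genes, Pax5 among 4 B cell genes, Klrb1c and Eomes among 4 natural killer cell genes, none of 4 myeloid genes, and Epcam, Krt8, Pdgfrb and Pecam1, the 4 epithelial and stromal genes (119 peak-side and 151 control-side reads). All 9 LTi genes had one within 1 kb of a gene end. Of the 8 genes of other cells, only Cd3d, Eomes and Epcam did. The part of other cells in the results below was not tested.

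Translation starts when the initiation factor eIF2 brings the initiator tRNA to the small ribosomal subunit, the cap-binding complex eIF4F recruits the mRNA, and eIF1, eIF1A and eIF3 help the subunit scan to the start codon. In elongation, eEF1A delivers each aminoacyl-tRNA and eEF2 moves the ribosome by a codon. Most of these proteins are needed in every cell, but several have paralogues with a narrow tissue range, and 4 kinases that phosphorylate eIF2 reduce initiation under stress. In lymphocytes, initiation through eIF4E and its inhibitors is controlled by the mTOR pathway during activation.

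The promoters of 4 pairs of related genes are shown because they carry the contrast between paralogues that runs through the results. Each is the 250 bases before a RefSeq transcription start in GRCm38.p6 (the assembly that mm10 names), written from 5′ to 3′ on the gene's strand, with CpG dinucleotides in capitals. Where a gene has several listed starts, the start nearest to the centre of its island is shown. In 3 pairs the first gene has an island at its start and the second has no island. They are the stress kinase genes Eif2ak4 (chr2:118388367-118388616, plus strand) and Eif2ak2 (chr17:78882573-78882822, minus strand), the helicase gene Eif4a1 (chr11:69672424-69672673, minus strand) and the related Eif4a3l1 (chr6:136327289-136327538, plus strand), and the elongation factor genes Eef1a1 (chr9:78481725-78481974, minus strand) and Eef1a2 (chr2:181157016-181157265, minus strand). The symbol of Eif4a3l1 names Eif4a3, which also has an island at its start and is not shown. In the fourth pair, Eif5a (chr11:69920631-69920880, minus strand) and Eif5a2 (chr3:28781027-28781276, plus strand), both have one, with very unequal reads.
Eif2ak4: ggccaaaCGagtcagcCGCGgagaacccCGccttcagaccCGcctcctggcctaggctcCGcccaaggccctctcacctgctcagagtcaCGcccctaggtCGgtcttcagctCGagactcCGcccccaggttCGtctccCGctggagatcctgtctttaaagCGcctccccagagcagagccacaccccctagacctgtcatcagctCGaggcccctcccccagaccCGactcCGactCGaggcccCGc
Eif2ak2: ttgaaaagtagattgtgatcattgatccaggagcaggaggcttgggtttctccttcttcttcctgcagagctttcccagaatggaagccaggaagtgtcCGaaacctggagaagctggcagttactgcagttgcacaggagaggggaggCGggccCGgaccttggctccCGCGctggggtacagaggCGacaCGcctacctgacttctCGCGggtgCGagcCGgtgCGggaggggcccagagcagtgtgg
Eif4a1: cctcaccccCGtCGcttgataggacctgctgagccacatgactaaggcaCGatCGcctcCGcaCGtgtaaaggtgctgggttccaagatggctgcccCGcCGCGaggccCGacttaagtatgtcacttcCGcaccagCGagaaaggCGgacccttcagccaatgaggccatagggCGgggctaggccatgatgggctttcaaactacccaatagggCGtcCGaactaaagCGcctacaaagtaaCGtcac
Eif4a3l1: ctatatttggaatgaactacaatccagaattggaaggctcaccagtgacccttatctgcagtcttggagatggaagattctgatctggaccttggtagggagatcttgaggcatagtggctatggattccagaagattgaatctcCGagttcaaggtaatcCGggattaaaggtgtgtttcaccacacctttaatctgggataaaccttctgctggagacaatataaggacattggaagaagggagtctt
Eef1a1: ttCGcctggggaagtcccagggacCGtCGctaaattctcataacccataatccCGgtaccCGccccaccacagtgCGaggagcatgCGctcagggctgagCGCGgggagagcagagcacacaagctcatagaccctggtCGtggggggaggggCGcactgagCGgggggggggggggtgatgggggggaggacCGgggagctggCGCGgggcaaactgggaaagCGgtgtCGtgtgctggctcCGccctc
Eef1a2: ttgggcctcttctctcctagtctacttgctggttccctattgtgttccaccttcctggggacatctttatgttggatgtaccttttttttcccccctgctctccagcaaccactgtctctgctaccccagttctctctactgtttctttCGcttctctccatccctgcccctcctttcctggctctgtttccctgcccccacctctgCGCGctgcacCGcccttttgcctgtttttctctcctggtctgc
Eif5a: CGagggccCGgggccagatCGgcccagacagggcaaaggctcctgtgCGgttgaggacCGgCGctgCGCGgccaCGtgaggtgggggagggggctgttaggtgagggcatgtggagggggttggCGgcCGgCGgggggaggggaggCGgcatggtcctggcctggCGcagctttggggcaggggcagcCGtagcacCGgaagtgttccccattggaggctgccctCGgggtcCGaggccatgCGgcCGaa
Eif5a2: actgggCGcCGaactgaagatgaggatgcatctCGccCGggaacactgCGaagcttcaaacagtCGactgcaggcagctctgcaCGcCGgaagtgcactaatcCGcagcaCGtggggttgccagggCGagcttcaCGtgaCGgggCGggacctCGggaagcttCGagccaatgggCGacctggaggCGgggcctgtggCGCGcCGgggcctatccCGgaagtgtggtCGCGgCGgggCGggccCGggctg
The 250 bases hold 18 CpG dinucleotides at Eif2ak4 and 12 at Eif2ak2, 18 at Eif4a1 and 2 at Eif4a3l1, 18 at Eef1a1 and 4 at Eef1a2, and 20 at Eif5a and 27 at Eif5a2.

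Most translation factor genes carried accessible chromatin at a gene end. An island was assigned to 62 of the 71 genes (87.3%), against 53.9% of all 21887 protein-coding genes outside mitochondrial DNA. Within 1 kb of a gene end, 59 of the 71 held one (83.1%), against 46.1% of all genes. RefSeq transcription starts could be placed for 55 of the 71 genes, and 49 of these 55 (89.1%) had an island within 1 kb of a start, against 47.8% of 17492 genes with a placed start. A called island was assigned to 50 of the 71 genes (70.4%), against 46.3% of all genes. The number of islands was 1 at 47 genes, 2 at 11 genes and 3 or more at 4 genes.

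Among 16 families and complexes of these genes, 9 had an island at every member and 7 lacked one at some member. Every member had one in eIF2B, eIF3, eIF4A, the eIF4A cofactors, eIF4G, eIF5 with eIF6, eIF5A, eEF1B and eEF2. Eif4a3l1 and Eef1akmt4-ece2 were placed in no family. If Eif4a3l1 were counted in eIF4A, that family too would lack an island at some member. The genes with no island were Eif1ax, Eif2s3y, Eif2ak2, Eif4e1b, Eif4e3, Eif4ebp3, Eef1a2, Eef1akmt3 and Eif4a3l1. No island of the table had under 8 peak-side reads, so absence from the table does not show closed chromatin.

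**Figure D1:**
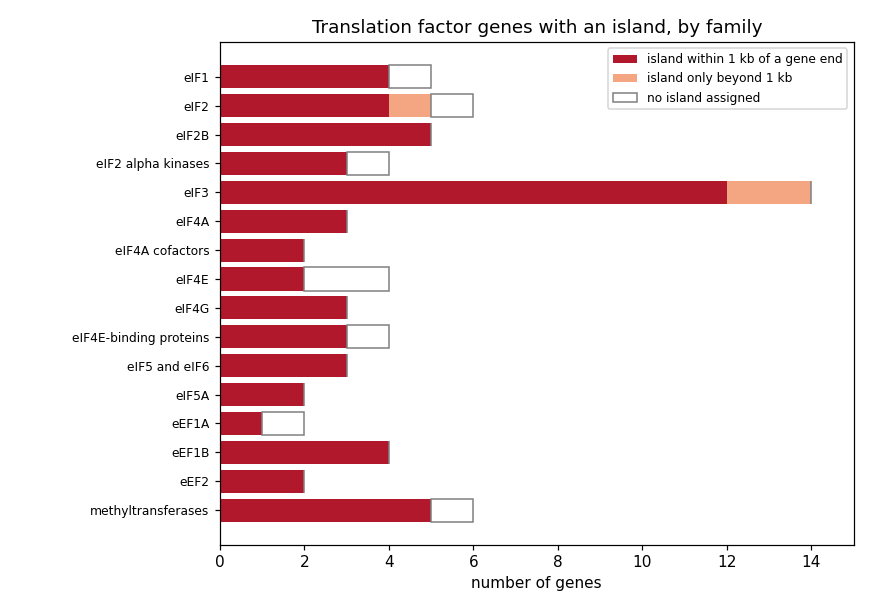
Number of translation factor genes (horizontal axis) in each family with a gene-end island, at most 1 kb away (dark), with an island only farther away (light) and with none (white). All 14 eIF3 genes had an island, while 1 of 2 eEF1A genes and 2 of 4 eIF4E genes did.

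The strength of the islands was close to that of other islands of the same kind. At a start, the islands of these genes had medians of 27 peak-side and 49 control-side reads, with interquartile ranges of 21 to 36 and 33 to 64, against 24 (16 to 35) and 39 (26 to 55) for all 7716 start islands. Their median fold was 1.74 (interquartile range 1.45 to 2.01), against 1.85 (interquartile range 1.54 to 2.26) for all start islands. Of the 84 islands, 68 (81.0%) were called in the authors' deposited table, against 82.3% of all islands. At gene ends 50 of 64 (78.1%) were called, against 80.8%, and at starts 38 of 49 (77.6%), against 81.1%. These shares lie near the background of the table. Of the 84 islands 32 (38.1%) were called and had a fold over 2, against 50.4% of all islands. The 2 sets differ in kind, since 76.2% of the 84 lay at a gene end, against 55.7% of all islands. In the whole table the median fold was 1.86 at gene ends and 2.32 farther away. At gene ends alone, the islands of these genes had a median fold of 1.77. The part of this difference in kind in the lower share over fold 2 was not tested. Among the 64 gene-end islands, 8 (12.5%) had more than 47 peak-side reads, the 90th percentile of all gene-end islands, as did 9.44% of all gene-end islands. No island of these genes had a fold under 1, as 1.67% of all islands did. The level of the folds rests on the scaling, since their median over the 84 islands was 0.970 in place of 1.85 with a factor taken from the total reads of all islands.

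**Figure D2:**
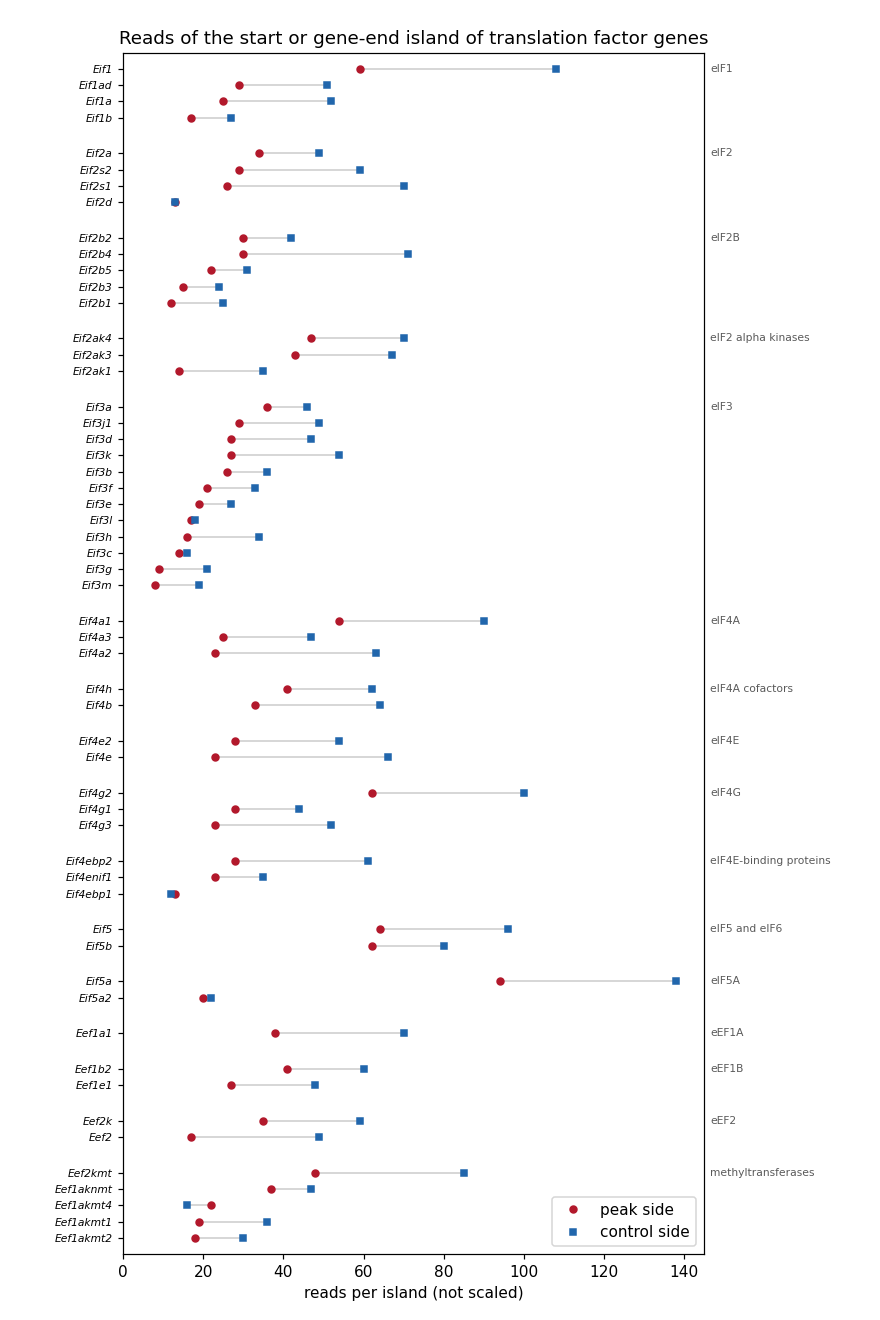
Reads per island, not scaled, on the peak side (circles) and the control side (squares) for 55 translation factor genes with an island at the start, or at a gene end where no start is listed, grouped by family. Eef1d, Eef1g and Eif6, which have no listed start and an island at both ends, are not drawn. Eif5a has the most reads on both sides (94 and 138) and Eif3m the fewest on the peak side (8 and 19).

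Reads of the 2 sides followed each other across genes. Over 58 islands, 1 per gene and counted once where genes share it, Spearman's rho between peak-side and control-side reads was 0.861, and over all start islands it was 0.853. The islands share the same libraries and depth, so this describes the table. Within each family the island with most peak-side reads was set against each of the others, which gave 39 pairs in 15 families. The ratio of peak-side reads had a counting interval above 1 in 23 pairs, the ratio of control-side reads in 23, and both in 21. The first member of each pair was chosen for its reads, so these counts are a description. The ratio of the 2 folds, in which the scaling cancels, had an interval that excluded 1 in 1 of the 39 pairs. A difference in fold was not detectable at this depth in the other 38 pairs. Per kb of island the order of peak-side reads turned in 8 of the 39 pairs.

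The eIF1 and eIF1A genes encode small factors that keep the scanning ribosome in an open state. Eif1 (chr11:100319601-100321400) had 59 peak-side and 108 control-side reads at its start and a fold of 1.58 (1.13 to 2.20). Its close paralogue Eif1b (chr9:120491601-120493400) had 17 peak-side and 27 control-side reads with a fold of 1.83 (0.934 to 3.47). Eif1 thus had 3.47 times the peak-side reads of Eif1b (2.00 to 6.35) and 4.0 times the control-side reads (2.60 to 6.35), on islands of equal width. Eif1a, the autosomal eIF1A gene, had 25 peak-side and 52 control-side reads with a fold of 1.39 (0.829 to 2.29), and the island was not called. That island was tied with Tmed7, and Eif1a has no listed start. Eif1ax, its X-linked copy, had no island, and the nearest one lay 114 kb away. Eif1ad, which encodes a protein with an eIF1A domain, had 29 peak-side and 51 control-side reads with a fold of 1.65 (1.01 to 2.65), on an island that also holds the start of Banf1.

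The eIF2 genes encode the 3 subunits of the complex that carries the initiator tRNA. Eif2s1, the alpha subunit that the stress kinases phosphorylate, had 26 peak-side and 70 control-side reads with a fold of 1.08 (0.659 to 1.71), and the island was not called. Eif2s2, the beta subunit, had 29 peak-side and 59 control-side reads with a fold of 1.43 (0.881 to 2.26), and its island was called. The gamma subunit has an X-linked and a Y-linked gene. Eif2s3x had 1 island, 10309 bp beyond the gene (chrX:94177801-94178400), with 19 peak-side and 24 control-side reads, and none at its start. Eif2s3y had none, and the nearest island lay 196 kb away. Of all protein-coding genes of chromosome X 23.3% had an island, and of those of chromosome Y 1.17%. Eif2a, an alternative carrier of initiator tRNA, had 34 peak-side and 49 control-side reads with a fold of 2.01 (1.26 to 3.18), at a start shared with Serp1.

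Eif2d, which acts in initiation at some mRNAs and in ribosome recycling, had 4 islands. The one at its start had 13 peak-side and 13 control-side reads with a fold of 2.90 (1.24 to 6.79). An island within the gene, 2059 bp from its end, had 12 peak-side and 15 control-side reads. The islands at chr1:131199801-131201200 and chr1:131204201-131205600 lay 12142 and 16542 bp beyond the gene. They had 22 peak-side and 18 control-side reads with a fold of 3.55 (1.82 to 7.01), and 16 peak-side and 10 control-side reads with a fold of 4.64 (1.98 to 11.4). The last is the highest fold among the 84 islands, and a start of Rassf5 lies within 1 kb of the island before it.

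eIF2B recharges eIF2 with GTP, and all 5 of its subunit genes had an island at a start or gene end. Eif2b2 and Eif2b4 each had 30 peak-side reads, with 42 and 71 control-side reads and folds of 2.07 (1.25 to 3.39) and 1.23 (0.772 to 1.90). The ratio of these folds was 1.69 (0.853 to 3.34), so the folds did not differ beyond counting error. The control-side reads of Eif2b2 were 0.592 times those of Eif2b4 (0.394 to 0.878). This was the only pair of the 39 with a control-side interval below 1. Eif2b5 had 22 peak-side and 31 control-side reads at its start and a second, smaller island upstream. Eif2b3 and Eif2b1 had 15 and 12 peak-side reads, on narrow islands of 400 and 600 bp. The Eif2b1 and Eif2b4 islands were not called, and they also hold the starts of Gtf2h3 and Snx17.

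The 4 eIF2 alpha kinases each respond to a different stress, and their genes differed in reads. Eif2ak4, the GCN2 kinase of amino acid shortage (chr2:118387801-118389400), had 47 peak-side and 70 control-side reads with a fold of 1.95 (1.32 to 2.86). Eif2ak3, the PERK kinase of the endoplasmic reticulum (chr6:70843801-70845600), had 43 peak-side and 67 control-side reads with a fold of 1.86 (1.24 to 2.77). These 2 genes lay side by side on both counts. Eif2ak1, the haem-regulated kinase HRI, had 14 peak-side and 35 control-side reads with a fold of 1.16 (0.577 to 2.21), and was not called. Eif2ak4 had 3.36 times its peak-side reads (1.82 to 6.60) and 2.00 times its control-side reads (1.31 to 3.09). Eif2ak2, the interferon-induced, double-stranded RNA sensor PKR, had no island, and the nearest one, assigned to Gpatch11 and Heatr5b, lay 13.5 kb away with 43 peak-side and 61 control-side reads.

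eIF3 is the large scaffold that holds the small subunit and the mRNA together. Each of its 14 genes had an island, 12 of them at a start or gene end, and 11 of the 15 islands were called, against 82.3% of all islands, so the count of calls says little about eIF3. Peak-side reads at starts and gene ends ran from 8 at Eif3m and 9 at Eif3g to 36 at Eif3a. Eif3a, its largest subunit (chr19:60790001-60792600), had 46 control-side reads with a fold of 2.27 (1.43 to 3.59). Eif3b, Eif3d, Eif3j1 and Eif3k followed with 26 to 29 peak-side reads and 36 to 54 control-side reads. The intervals of the peak-side ratio of Eif3a over each of these 4 genes reached below 1, so their order is not resolved. Eif3g, Eif3m, Eif3h at its gene end and Eif3i, whose only island lay 5774 bp from the gene, were not called. Eif3j2, a second eIF3J gene, had only an island 15165 bp away with 11 peak-side and 10 control-side reads. Eif3h also had one 47563 bp from its gene end with 19 peak-side and 14 control-side reads with a fold of 3.94 (1.87 to 8.48).

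eIF4A is the RNA helicase that unwinds the mRNA leader. Eif4a1 (chr11:69670801-69672800) had 54 peak-side and 90 control-side reads with a fold of 1.74 (1.22 to 2.47). Eif4a2, which encodes a closely related helicase, had 23 peak-side and 63 control-side reads with a fold of 1.06 (0.627 to 1.73). Eif4a3, whose protein acts in the exon junction complex, had 25 peak-side and 47 control-side reads with a fold of 1.54 (0.910 to 2.56). Eif4a1 exceeded Eif4a2 on the peak side by 2.35 times (1.42 to 4.01) and on the control side by 1.43 times (1.02 to 2.00). The ratio of their folds was 1.64 (0.885 to 3.10). Eif4a3l1 had no island, and the nearest one lay 132 kb away. The helicase cofactor genes Eif4h and Eif4b had 41 and 33 peak-side reads with 62 and 64 control-side reads, and their counts did not differ beyond counting error on either side. Their islands were 3600 and 1000 bp wide, so that per kb Eif4h had 11.4 and Eif4b 33 peak-side reads.

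The cap-binding genes were uneven in presence. Eif4e, the cap-binding protein (chr3:138526001-138528200), had 23 peak-side and 66 control-side reads with a fold of 1.01 (0.600 to 1.65), among the lowest of the 84 islands, and it was not called. Eif4e2, a cap-binding paralogue that represses translation, had 28 peak-side and 54 control-side reads with a fold of 1.50 (0.917 to 2.42). Their folds differed by a ratio of 1.49 (0.732 to 3.04), within counting error. Eif4e3 and Eif4e1b had no island assigned. The nearest island to an end of Eif4e1b, 0.542 kb away with 13 peak-side and 35 control-side reads, belonged to Tspan17, and the nearest to an end of Eif4e3 was 25.1 kb from it, inside the gene, and belonged to Gpr27.

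eIF4G is the scaffold that joins the cap to eIF3. Eif4g2, whose protein lacks the eIF4E-binding region and serves cap-independent initiation (chr7:111081001-111083800), had 62 peak-side and 100 control-side reads with a fold of 1.80 (1.29 to 2.49). Eif4g1 had 28 peak-side and 44 control-side reads at its start and a fold of 1.85 (1.11 to 3.03), and Eif4g3 had 23 peak-side and 52 control-side reads and was not called. Eif4g2 thus had 2.21 times the peak-side reads of Eif4g1 (1.40 to 3.59) and 2.70 times those of Eif4g3 (1.65 to 4.56). A second island assigned to Eif4g2, 39171 bp from it, had 32 peak-side and 37 control-side reads with a fold of 2.51 (1.51 to 4.14).

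The eIF4E-binding proteins hold eIF4E away from eIF4G until mTOR phosphorylates them. Eif4ebp2 had 28 peak-side and 61 control-side reads with a fold of 1.33 (0.819 to 2.12), and the island was not called. Eif4ebp1 had 13 peak-side and 12 control-side reads with a fold of 3.14 (1.32 to 7.53), and its island was called. Eif4ebp2 had 2.15 times its peak-side reads (1.08 to 4.53) and 5.08 times its control-side reads (2.71 to 10.4), while the ratio of the folds was 0.424 (0.156 to 1.16). Eif4ebp3 had no island, and the nearest one, 2.68 kb away with 20 peak-side and 21 control-side reads, belonged to Sra1. Eif4enif1, which carries eIF4E into the nucleus, had 23 peak-side and 35 control-side reads with a fold of 1.91 (1.08 to 3.32).

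The factors that act at the start codon and at subunit joining had some of the strongest islands. Eif5, the activator of GTP hydrolysis by eIF2 (chr12:111537401-111539400), had 64 peak-side and 96 control-side reads with a fold of 1.93 (1.39 to 2.68). Eif5b, which joins the large subunit (chr1:37995601-37999000), had 62 peak-side and 80 control-side reads with a fold of 2.25 (1.59 to 3.17) on an island that also holds the start of Txndc9. These 2 genes did not differ beyond counting error in reads of either side. Eif6, which keeps the large subunit from joining early, has no listed start here and had an island at each end. One held 42 peak-side and 63 control-side reads and was tied with Mmp24 and BC029722, and the other held 31 peak-side and 56 control-side reads.

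Eif5a showed the largest gap between paralogues on either side of the table among the 39 pairs. The protein eIF5A carries the amino acid hypusine and helps the ribosome past sequences that stall it. Eif5a (chr11:69919001-69922200) had 94 peak-side and 138 control-side reads, the most of any translation factor island on both sides, and a fold of 1.98 (1.50 to 2.59). Of all gene-end islands 99.8% had at most as many peak-side reads. Eif5a2, its paralogue (chr3:28780801-28781600), had 20 peak-side and 22 control-side reads with a fold of 2.64 (1.37 to 5.06). Eif5a exceeded it by 4.70 times on the peak side (2.88 to 8.04) and by 6.27 times on the control side (3.98 to 10.3). The Eif5a island is 3200 bp wide and holds 6 listed starts, against 800 bp at Eif5a2, and per kb the peak-side ratio was 1.18. The gap in reads therefore came with a gap in island width.

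Among elongation factor genes, Eef1a1, the form used by most cells (chr9:78479401-78482400), had 38 peak-side and 70 control-side reads at its start and a fold of 1.57 (1.03 to 2.37). An island 7277 bp from the gene had 14 peak-side and 11 control-side reads with a fold of 3.69 (1.56 to 8.99). Eef1a2, the form known from muscle and neurons, had no island, and the nearest one, 29.6 kb away, belonged to Ppdpf. The exchange factor genes Eef1g, Eef1d and Eef1b2, which recharge eEF1A, had 54, 44 and 41 peak-side reads and 87, 61 and 60 control-side reads on their strongest gene-end islands. Their folds were 1.80 (1.26 to 2.56), 2.09 (1.39 to 3.13) and 1.98 (1.30 to 3.0). The Eef1d and Eef1b2 islands were tied with Tigd5 and Ndufs1. At its other end Eef1b2 had a second island with 14 peak-side and 35 control-side reads and a fold of 1.16, which was not called. Eef1e1, whose protein belongs to the complex of tRNA synthetases, had 27 peak-side and 48 control-side reads.

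Eef2, the translocase, had 4 islands of different kinds. At its start (chr10:81176201-81178200) it had 17 peak-side and 49 control-side reads with a fold of 1.01 (0.543 to 1.78), the lowest of the 84 islands. At its other end (chr10:81181201-81183400) it had 31 peak-side and 24 control-side reads with a fold of 3.75 (2.13 to 6.67), and a start of Dapk3 lies there as well, so these reads cannot be split between both genes. Islands 1231 and 3031 bp upstream of Eef2 each had 11 peak-side reads, with 26 and 18 control-side reads. Eef2k, the kinase that inhibits eEF2, also had 4 islands, and these were called, as most islands of the table were. The strongest, at a start, had 35 peak-side and 59 control-side reads, and the other 3 had 12 to 13 peak-side and 11 to 16 control-side reads with folds of 2.36 to 3.16. Eef2k had 2.06 times the peak-side reads of Eef2 at the start (1.12 to 3.92) and 1.20 times the control-side reads (0.810 to 1.80).

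The methyltransferases that modify eEF1A and eEF2 had islands at 5 of 6 genes. These 5 were called, as were 82.3% of all islands, so the count does not set the family apart. Eef2kmt, which methylates eEF2, had 48 peak-side and 85 control-side reads with a fold of 1.64 (1.13 to 2.36). Eef1aknmt had 37 peak-side and 47 control-side reads with a fold of 2.28 (1.44 to 3.59). Eef1akmt1 and Eef1akmt2 had 19 and 18 peak-side reads, with 36 and 30 control-side reads and folds of 1.53 (0.829 to 2.74) and 1.74 (0.914 to 3.23). Eef1akmt4 (chr16:20611601-20612200) had more peak-side than control-side reads before scaling (22 peak-side and 16 control-side) and a fold of 3.99 (2.00 to 8.12). The pair of Eef2kmt and Eef1akmt4 is the 1 pair of 39 whose folds differed beyond counting error, with a ratio of 0.411 (0.183 to 0.912). Across so many pairs, an interval of this kind can miss 1 by counting error alone. The Eef1akmt4 island also holds the start of the read-through gene Eef1akmt4-ece2, and a start of Alg3 lies within 1 kb of it. Eef1akmt3 had no island, and the nearest one, 1.61 kb away with 9 peak-side and 27 control-side reads, belonged to Tsfm.

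**Figure D3:**
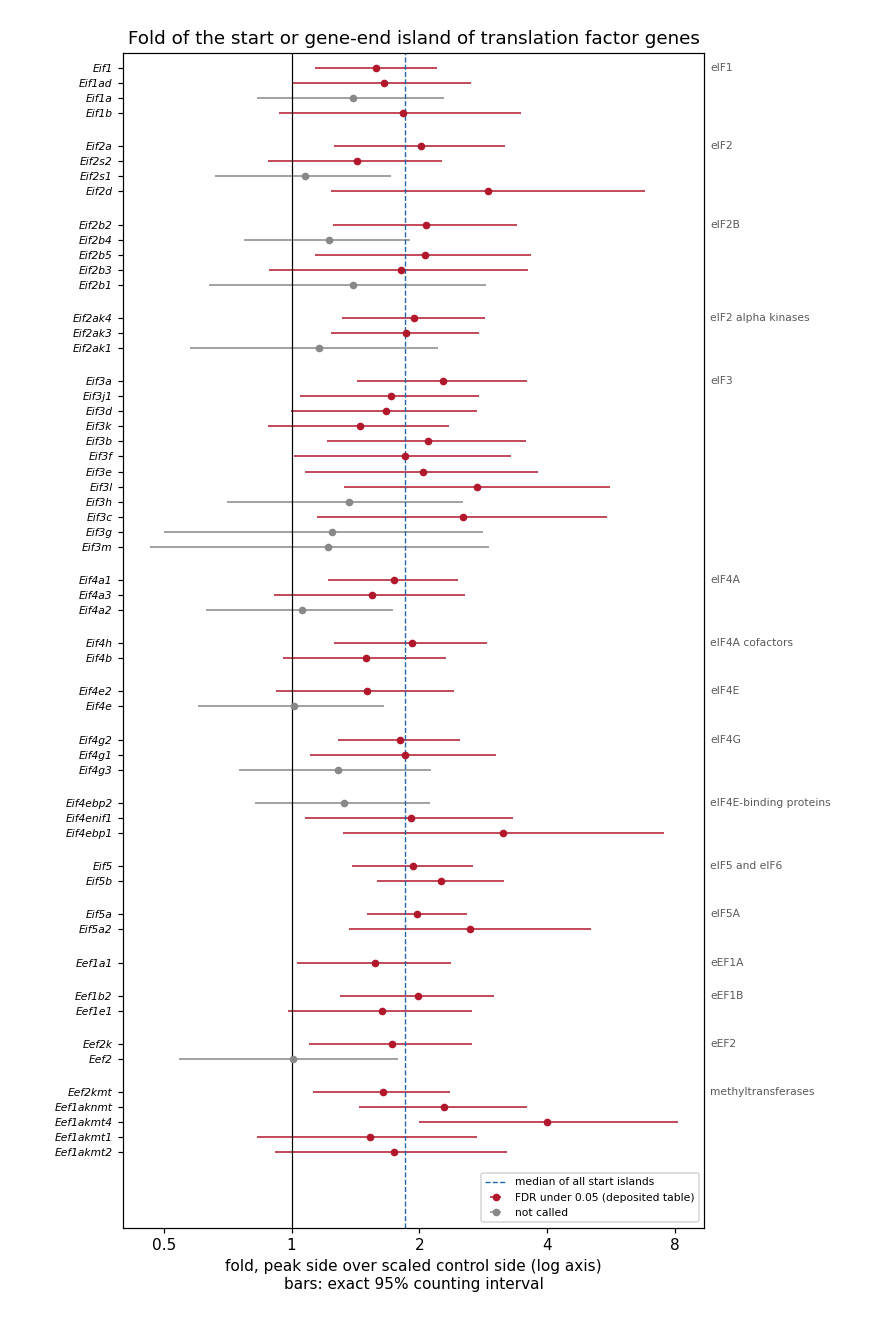
Fold of peak-side over scaled control-side reads (log axis) with exact 95% counting intervals for the same 55 genes, coloured by whether the island was called in the authors' deposited table. The dashed line is the median of all start islands (1.85), with the whole interval of Eef1akmt4 above it and those of Eef2, Eif4e, Eif2s1 and Eif4a2 below it.

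The 16 islands that were not called had folds of 1.01 to 1.39, and the lowest fold of a called island was 1.43. They had a median of 16.5 peak-side and 42 control-side reads, and 14 of them lay at a gene end. They included the start islands of several core factors, namely Eif2s1, Eif4a2, Eif4e, Eif4g3 and Eef2.

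Islands away from gene ends were weaker in reads and higher in fold. The 20 islands beyond 1 kb of a gene end had a median of 12 peak-side and 16.5 control-side reads and a median fold of 2.41, against 13 peak-side and 18 control-side reads and a fold of 2.32 for all 7351 such islands. The 64 gene-end islands had medians of 27 peak-side and 48.5 control-side reads and a fold of 1.77, against 23 peak-side and 37 control-side reads and a fold of 1.86 for all 9233 such islands. Eif1 had 3 of these outlying islands, 19149 to 23949 bp from the gene, with 8 to 12 peak-side reads. Fold fell as control-side reads rose, with a Spearman's rho of -0.640 over all islands and -0.401 over all start islands. Over the 58 islands of these genes, 1 per gene, it was -0.271. Control-side reads divide the fold and every island has at least 8 peak-side reads, so a high fold at few reads is partly built in. Its share in the higher folds away from gene ends was not tested. For a distal island, the nearest gene end does not show which gene it serves.

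**Figure D4:**
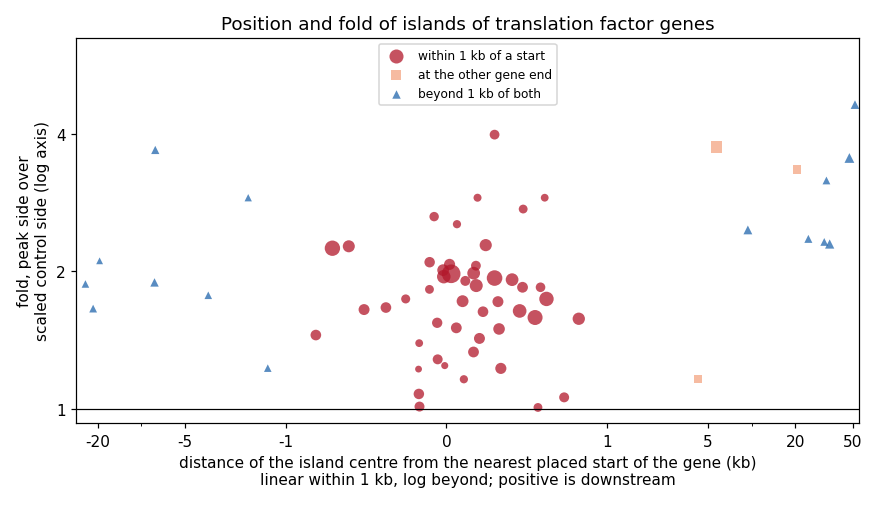
Fold of each island (log axis) by distance of its centre from the nearest listed start of its gene (kb, linear within 1 kb and log beyond), for the genes with a placed start, with symbol size rising with peak-side reads. Start islands cluster within 1 kb with folds of 1.01 to 3.99, and the highest fold (4.64) is an outlying island of Eif2d.

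Several promoters were shared with a neighbour. Of 49 start islands 9 (18.4%) also lay within 1 kb of a start of another gene, as did 11.4% of all start islands. The neighbours were Banf1, Serp1, Atp6v1d, Gtf2h3, Snx17, Map4k1, Gm51877, Txndc9 and Alg3, beside Eif1ad, Eif2a, Eif2s1, Eif2b1, Eif2b4, Eif3k, Eif4enif1, Eif5b and Eef1akmt4. Reads of these islands cannot be split between the genes. Some members also lie close to each other. On chromosome 16, Eif2b5, Eef1akmt4 and Eif4g1 lie between 20498795 and 20692883, each with its own start island of 22, 22 and 28 peak-side reads. On chromosome 11, Eif4a1 and Eif5a lie 244 kb apart.

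The promoters were rich in CpG. In windows of 300 bases, 250 before and 50 after the first listed start, the 55 genes had a median of 23 CpG dinucleotides (interquartile range 18 to 31), against 13 (3.75 to 24) over all 17492 genes. The 49 genes with an island at that start had a median of 23, against 15.5 for the 6 without one. Over all genes the medians were 22 with an island and 4 without. With 13 to 20 CpG dinucleotides 14 of 16 starts of these genes had an island (87.5%), against 71.6% of all starts in that class, and with 21 to 30 it was 17 of 18 (94.4%), against 79.9%. The starts without an island held 3 CpG dinucleotides at Eif4a3l1, 8 at Eef1a2, 14 at Eif2s3y, 17 at Eif2ak2, 21 at Eif2s3x and 31 at Eif1ax. Of these 6 genes, 3 lie on a sex chromosome, where fewer of all genes had an island as well.

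**Figure D5:**
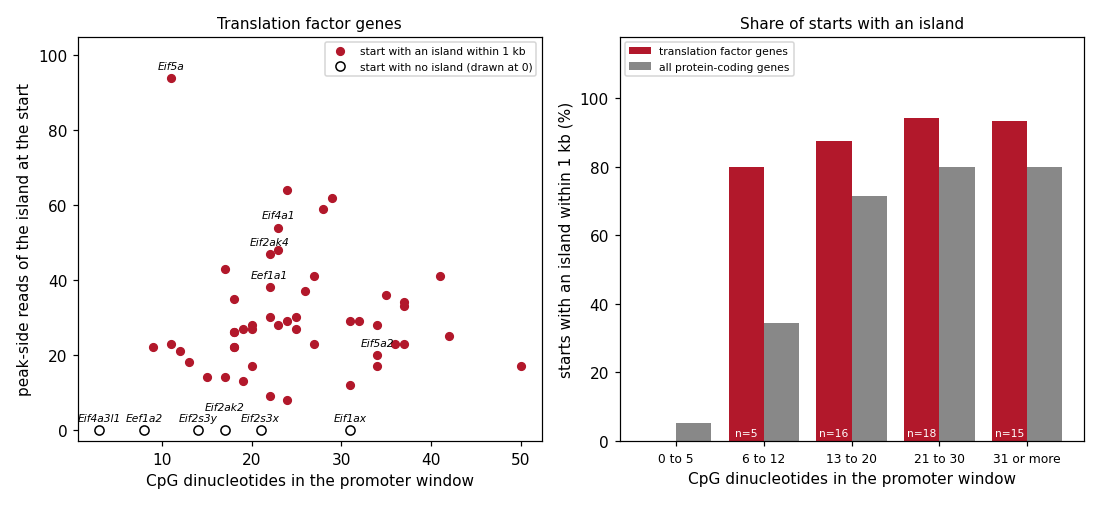
Left, peak-side reads of the island at the first listed start (0 where there is none) by the number of CpG dinucleotides in the 300-base window for 55 translation factor genes. Right, share of starts with an island by CpG class for these genes and for all protein-coding genes, with no translation factor start of 0 to 5 CpG having an island (1 start) and 94.4% of those with 21 to 30.

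Short motifs were searched on both strands of the same windows, and a match is a description of the letters and not a site. The E-box CACGTG, which Myc and its relatives bind, was present in 13 of 55 windows (23.6%), against 7.90% of all windows. Among starts with an island it was present in 26.5%, against 10.9% of all such starts. The 13 were those of Eef1akmt4, Eef1akmt4-ece2 (the same window), Eef1aknmt, Eef2, Eef2k, Eif1b, Eif3a, Eif3f, Eif3k, Eif4a1, Eif4g1, Eif4h and Eif5a2. The Eif5a promoter printed above, at a start other than the first listed, holds these letters too. The ETS motif CCGGAAGT was present in 8 windows (14.5%), against 5.29%, and the NRF1 motif GCGCATGC in 5 (9.09%), against 3.61%. The YY1 motif AAGATGGCG was present in 2 (3.64%), against 1.94%, the CCAAT letters in 18 (32.7%), against 39.0%, and the TATA box TATAAA in 5 (9.09%), against 13.3%. At starts with an island the ETS motif was in 16.3%, against 9.63% of all such starts, and the NRF1 motif in 10.2%, against 6.29%. There the order turned for YY1 (2.04%, against 3.71%) and for the TATA box (8.16%, against 6.04%). The CCAAT letters kept theirs (34.7%, against 40.2%). CTTTGAT, a form of the site of TCF-1 and its relatives, was in none of the 55 windows, against 3.25% of all windows. No match says only that these letters are not in these windows. Many mRNAs of the translation machinery begin with a C and a run of pyrimidines, the 5′ terminal oligopyrimidine tract through which mTOR controls them. A C within 5 bases of the first listed start, followed by at least 4 pyrimidines, was found at 14 of 55 starts (25.5%), against 18.7% of all starts. At starts with an island it was found at 22.4% of these genes, against 19.8% of all genes. With the C at the listed start itself, the tract was found at 2 of 55 starts (3.64%), those of Eif2s3x and Eif3f, against 2.17% of all starts. Eef1a1 had the looser form alone.

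Other genes of translation and its control were described by 7 lists. An island was assigned to 35 of their 40 genes (87.5%), against 53.9% of all protein-coding genes. Of their 46 islands 41 were called, against 82.3% of all islands, and their median fold was 1.89, against 2.01 over all islands. Each of the 11 genes of mTOR and eIF4F control and each of the 8 genes of the integrated stress response had one. The scanning and recycling list lacked 1 of 6 genes (Mcts1), termination 1 of 5 (Gspt2), selenocysteine elongation 1 of 2 (Eefsec) and the mitochondrial translation factors 2 of 6 (Mtif2 and Mtif3), while both hypusination genes, Dhps and Dohh, had one. The most reads were at Mknk2, a kinase of eIF4E, with 81 peak-side and 143 control-side reads with a fold of 1.64 (1.24 to 2.17). Impact, an inhibitor of GCN2, had 79 peak-side and 125 control-side reads on an island 17511 bp from the gene, and Ddit3, a transcription factor of the stress response, had 72 peak-side and 126 control-side reads. Pabpc1, the poly(A)-binding protein, had 63 peak-side and 97 control-side reads, and Atf5, another transcription factor of that response, had 61 peak-side and 86 control-side reads.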

How the data were processed

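DNase-seq was run on 2 Tcf7-KO and 2 control libraries, and 1 table of islands for the whole series was analysed. The submitters' processing notes name Bowtie2 2.4.2, SICER 2.0 and the mm10 build. Per the file headers, the authors deposited for each island whole read counts of a peak side and a control side without normalization, a p-value, an FDR (q-value) and a fold (ratio). Which libraries stand on each side, and whether they were pooled, is not stated in labels or headers. The deposited fold and p-value were recomputed from the counts (a Poisson upper tail around control-side reads times 0.345, with 0.25 reads in place of 0), and they differed by at most 4.98e-08 in p. Depth is known only as reads in islands, since no source used here states library totals.

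For 1-based mm10 coordinates, 1 was added to deposited starts and ends. Genes, starts and promoter windows came from RefSeq GRCm38.p6, and windows matched 55 of 71 genes by symbol. With 1 value per side, no test across samples was possible; intervals are exact counting intervals (Python 3.11.15, scipy 1.17.1), and the code was tested on simulated data. Values in full follow a rule that takes families with uneven presence, the islands of most reads, the highest and lowest folds and genes with 3 or more islands, and other start islands were added. A planned cell type marker is not reported here. The genes, lists and rules were chosen with earlier results of these data known, and the pyrimidine tract was searched after seeing the data.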

Additional observations from a re-analysis of the deposited data

How the results depend on the processing

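No paired analysis was possible because neither side of the table names a library or replicate. For the same reason the planned edgeR comparison of Tcf7-KO with control libraries and the fits without each replicate were not run. The number of translation factor genes with an island (62 of 71) was 46 to 61 of 71 under the other windows, assignments and read minimums, and 50 of 55 by nearest start site, all within 1.5 times. Leaving out islands tied between genes, chosen after seeing the data, gave 50 of 71. The 68 called islands of 84 became 52 under an FDR under 0.01 and 50 of 64 at gene ends. They became 32 with a fold over 2 as well, 40 of 47 with at least 20 peak-side reads, and 38 of 49 at starts (chosen after seeing the data), where fewer islands were counted by construction. Scaling the control side by the reads in all islands left 5 called (1524 of 16584 over the table) and put the median fold at 0.970 in place of 1.85. With it, reads of all islands together give a fold of 1, so both shifts are built in, and the level of every fold rests on the choice of scaling. The 5 were 2 outlying islands of Eif2d, the far end of Eef2, the outlying island of Eif3h and the start of Eef1akmt4. The median fold was 1.74 to 1.81 under the other alternatives. The median of 22.5 peak-side reads was 27 at gene ends, at starts and for the strongest island per gene, and 14.05 per kb, a change of unit. Depth limits single islands: at the start of Eif2d, 13 reads on each side gave an interval of 1.24 to 6.79 around a fold of 2.90.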
